A study of Mus musculus with 48 samples.

Results

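The effect of twice-a-night (TAN) feeding that was shared across the day was described in inguinal (subcutaneous) white adipose tissue (sWAT) as the mean, over 6 time points, of the difference between TAN and ad-lib mice for each gene. Members were the genes whose fitted difference had the same sign at all 6 times, which were 708 of the 19977 genes tested and of the 54532 genes listed. Of these, 336 were higher under TAN, which is 1.68% of the genes tested, and 372 were lower, which is 1.86%. The mean effect itself passed at an adjusted p under 0.05 (quasi-likelihood test of edgeR, with Benjamini-Hochberg adjustment over the whole table) for 174 of the 336 and for 70 of the 372, and 165 and 69 of these remained after setting aside 20 metabolic "elasticity" genes that the study followed. Since the mean and the 6 signs come from the same 6 differences, the shared sign is a description with no test of its own.

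The animals were mice of strain C57BL/6 by the labels and C57BL/6J by the study's methods, 8 months old by the labels and male by the methods, with no genetic change. TAN mice had food only in 2 windows of the dark phase, and ad-lib mice had free access. There were 24 libraries per diet, 4 at each of 8 AM, 12 PM, 4 PM, 8 PM, 12 AM and 4 AM, and since the labels do not state that the 4 were separate animals, p-values measure the spread between these libraries. TAN mice also ate somewhat less by the study's account, so that the timing of food and its amount cannot be told apart. The series text names the stromal vascular fraction of the depot, while the study describes whole tissue, and summed adipocyte markers ran from 5790 to 53900 CPM (counts scaled to library size), so that adipocyte RNA was abundant throughout. In bulk tissue, fewer cells of a type and less RNA per cell cannot be told apart.

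White adipocytes take up glucose and turn it into fat. Glycolysis and the pyruvate dehydrogenase complex deliver carbon to the mitochondrion, citrate carries it back to the cytosol, and fatty acid synthase and its partners build acyl chains from it with NADPH from the pentose phosphate pathway and malic enzyme. In mice these genes follow insulin and carbohydrate intake, which makes them a usual readout of the fed state of this tissue.

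Genes that rose under TAN and stayed above ad-lib at each of the 6 times included genes of this route from glucose to fat. The transketolase gene Tkt rose 2.94-fold and the citrate carrier gene Slc25a1 rose 3.13-fold. Of the 165 genes beyond the elasticity set, 32 stood on a list of lipid or sugar genes, 41 on any of the lists compared, and 124 on none. The share of all genes tested on these lists was not counted, and the lists were written with earlier results of these data known. Called higher at all 6 times were 12 of 21 de novo lipogenesis genes and 5 of 23 glycolysis genes, against 174 of all 19977 tested. For pyruvate entry and the TCA cycle it was 6 of 33, and for pentose phosphate and NADPH genes 2 of 12. The 70 genes that fell formed a more mixed group, with the amino acid transporter gene Slc38a4, the matrix gene Vtn, lysosomal genes, muscle genes and 16 immunoglobulin segments.

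Over all genes tested, 535 (2.68%) were called higher for the mean effect and 547 (2.74%) lower, and 4289 had an unadjusted p under 0.05. The median log2 difference over all genes was -0.08, and by time it lay between -0.14 at 12 AM and 0.04 at 12 PM. Among the 174 called genes higher at all 6 times, the median mean log2 difference was 0.69, the smallest 0.22, and 50 passed 1. Among the 70 lower genes, the median was -1.63 and 43 passed 1 in size, but 20 of the 70 had a mean under 1 CPM in ad-lib mice, against 13 of the 174 under TAN. The deposited table of the authors' mean FPKM per group placed TAN above ad-lib at all 6 times for 159 of the 174, and below it for 68 of the 70. These means come from the same groups of libraries that chose the genes. They compare 2 ways of scaling the same data and are no separate support.

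The shared sign did not mean that each time passed alone. Of the 174 higher genes, 78 passed at no time, 72 at 1 time, 18 at 2, 3 at 3 and 3 at 4. Of the 70 lower genes, 26 passed at no time, 43 at 1 time and 1 at 2. The 4 TAN libraries lay wholly above the 4 ad-lib libraries at 4 or more times for 12 of the 174, against 21 (0.105%) of all genes tested, and no gene did so at all 6 times. In the opposite direction, 2 genes (0.01%) were separated at 4 or more times, and neither was among the 70.

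Close to the sign rule, the fitted difference of the lipid droplet coat gene Plin2 was 0.00 at 4 AM, that of the autophagy kinase gene Ulk1 was 0.01 at 8 AM, and that of the phosphofructokinase gene Pfkl was 0.02 at 8 PM on the log2 scale, all just inside. Just outside lay the mitochondrial ribosome gene Mrps15 at -0.01 and the fatty acid oxidation gene Hadhb at -0.01, both at 8 AM, the sterol gene Cyp51 at -0.03 at 4 AM and the lysophosphatidic acid acyltransferase gene Agpat3 at -0.03 at 8 AM. These 7 genes were picked for their place at the limit after their values were seen.

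Libraries held 15636378 to 29913310 counts. Summed lymphocyte markers fell under 210 CPM in 10 libraries, 6 TAN and 4 ad-lib, against a median of 1050 over all 48. Among them were 3 of the 4 TAN libraries at 4 PM, TAN replicates 2 and 4 at 12 AM (7.81 and 11 CPM) and TAN replicate 4 at 8 PM. The ad-lib ones stood at 8 AM, 12 PM and 4 AM. Summed adipocyte markers were 9180 and 5790 CPM in TAN replicates 1 and 2 at 8 PM, against a median of 28600, and these 2 libraries also held the T and NK cell sums of 2740 and 2830 CPM, where the ad-lib libraries reached at most 1240. Summed skeletal muscle markers passed 532 CPM in 5 TAN and 5 ad-lib libraries and reached 8740 in ad-lib replicate 3 at 4 AM. The share of mitochondrially encoded counts had a median of 6.54% under TAN and 5.2% in ad-lib. The part of these differences in the results was not tested beyond the refits given beside them.

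**Figure D1:**
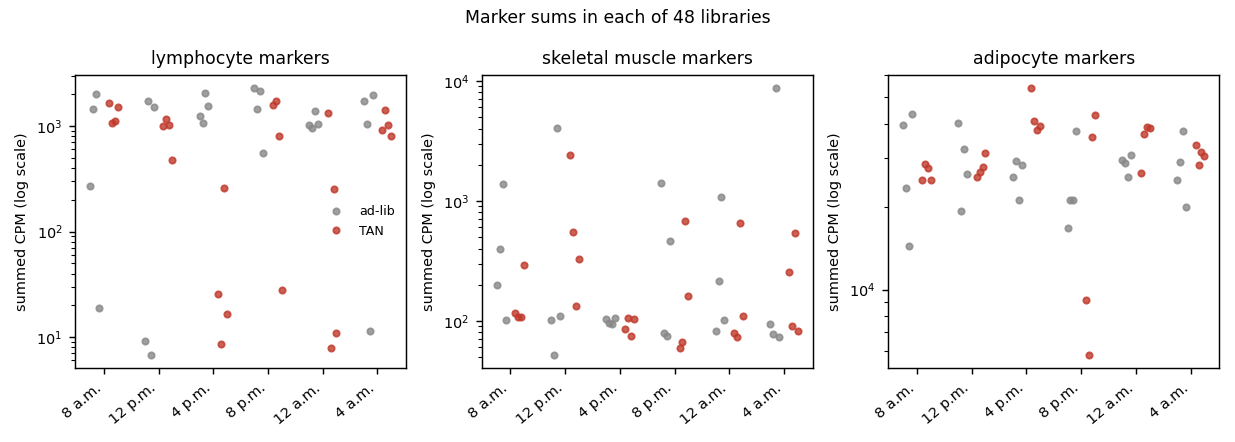
Summed CPM (log axis) of lymphocyte, skeletal muscle and adipocyte marker genes at each of the 6 times, 1 point per library, TAN in red and ad-lib in grey. Lymphocyte sums split into a high and a low set, with 3 of the 4 TAN libraries at 4 PM in the low set, muscle sums reach 8740 in 1 ad-lib library, and 2 TAN libraries at 8 PM have the lowest adipocyte sums, 9180 and 5790.

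Without the 2 libraries low in adipocyte markers, 318 genes were called higher and 160 lower at all 6 times, and 166 of the 174 and 66 of the 70 kept both call and sign. Without the 10 libraries low in lymphocyte markers, the counts were 177 and 303, and 72 of the 174 and 41 of the 70 kept both, while 143 and 52 kept the call. Without the 10 libraries high in muscle markers, 75 and 30 genes were called. Each of these 3 refits dropped samples, and the first 2 were chosen after the data had been seen. With all libraries and lymphocyte markers as a covariate, 113 of the 174 and 31 of the 70 kept both call and sign. With muscle markers as a covariate 170 and 47 kept both, and with the mitochondrial share of counts 95 and 18. With adipocyte markers, a covariate also chosen after the data had been seen, it was 153 and 39.

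The count also rested on the times entered. As a mean over 5 times, 44 genes higher and 7 lower at all of those times passed without 4 PM, 66 and 13 passed without 12 AM, and 338 and 337 passed without 8 AM. Of the 174 and the 70, 43 and 3 kept both call and sign without 4 PM. Without 12 AM 62 and 12 kept both, and without 8 AM 159 and 64. At 4 PM and 12 AM, as at 8 PM, the libraries low in lymphocyte markers were all TAN libraries. The part of this in the counts was not tested beyond the refits given above. Leaving out any 1 of the 48 libraries, 124 of the 174 and 30 of the 70 stayed called. TAN replicate 4 at 8 PM and ad-lib replicate 1 at 4 AM moved the 174 most, to 92 and 102.

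Promoters of 3 genes of the glucose-to-fat route are shown, from the RefSeq table (GRCm38.p6). They run from 250 bases before to 50 after the start of transcription. The 3 genes were picked by hand after their values were seen. Some genes of the route that are not shown had a smaller p than Tecr. The windows are Tkt at chr14:30548881-30549180 on the plus strand, Slc25a1 at chr16:17928170-17928469 on the minus strand and Tecr at chr8:83594442-83594741 on the minus strand. Capitals mark the CCAAT box, the GC box, which has the letters GGGCGG, and the E-box, whose letters are CACGTG, each on either strand and with no overlap between the 3 motifs.
Tkt: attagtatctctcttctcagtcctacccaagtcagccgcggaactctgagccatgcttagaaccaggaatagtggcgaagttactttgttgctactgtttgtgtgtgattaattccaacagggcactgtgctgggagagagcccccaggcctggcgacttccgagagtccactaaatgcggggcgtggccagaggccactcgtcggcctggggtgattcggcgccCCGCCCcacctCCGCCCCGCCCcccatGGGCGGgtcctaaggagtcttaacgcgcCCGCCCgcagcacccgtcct
Slc25a1: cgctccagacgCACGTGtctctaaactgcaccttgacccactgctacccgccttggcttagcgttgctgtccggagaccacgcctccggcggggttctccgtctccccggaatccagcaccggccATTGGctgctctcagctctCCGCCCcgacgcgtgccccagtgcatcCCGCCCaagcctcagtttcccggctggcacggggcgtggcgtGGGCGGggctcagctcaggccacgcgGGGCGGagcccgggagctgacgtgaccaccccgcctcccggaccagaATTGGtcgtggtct
Tecr: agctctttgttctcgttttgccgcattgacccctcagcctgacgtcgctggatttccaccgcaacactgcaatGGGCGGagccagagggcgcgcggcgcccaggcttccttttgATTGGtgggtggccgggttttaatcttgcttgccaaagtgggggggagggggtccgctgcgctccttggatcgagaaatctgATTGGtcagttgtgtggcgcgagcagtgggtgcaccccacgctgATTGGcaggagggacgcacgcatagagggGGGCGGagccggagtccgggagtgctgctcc

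The Tkt window held 5 GC boxes and no CCAAT, the Slc25a1 window 2 CCAAT, 4 GC boxes and 1 E-box, and the Tecr window 3 CCAAT and 2 GC boxes. Of the 12 de novo lipogenesis genes called higher at all 6 times, 11 had a promoter in the table. Of these, 9 (81.8%) held CCAAT, against 41.1% of all 27025 genes with a promoter there. For the 11820 protein-coding genes tested that had one, it was 42.6%. A gene counted when any of its promoters held the motif. GC boxes stood in 6 of the 11 (54.5%), which lay above the 38.2% of those 27025 genes but below the 64% of protein-coding genes tested. E-boxes stood in 1, against 8.09% and 11%, and the sterol regulatory element TCACNCCAC in 0, against 1.44% and 1.4%. Of all 158 protein-coding genes called higher at all 6 times, 121 (76.6%) had a promoter in the table. CCAAT stood in 59 of these 121 (48.8%), so that the high share was not that of the members as a whole. It stood in 4 of 5 members of cholesterol synthesis, 2 of 4 of glycolysis and 3 of 6 of pyruvate entry and the TCA cycle. A match is a description, not a site.

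Tkt (ENSMUSG00000021957, chr14:30548359-30574720, GRCm38) encodes transketolase, which links the pentose phosphate pathway to glycolysis. Its level was 350 CPM in the lowest, 1750 in the median and 3340 in the highest TAN library, and 190, 532 and 1230 in the ad-lib libraries, with 20 of the 24 TAN libraries above every ad-lib one. The mean log2 difference was 1.55 ± 0.151 (SE), adjusted p = 5.75e-09. It was not even over the day, and the difference between times passed its own test at an adjusted p of 0.0312, a test that 1793 genes passed by edgeR with all libraries and 0 without the 10 libraries high in muscle markers. The log2 difference was 2.47 at 12 PM and 2.38 at 4 PM, but 0.66 at 8 PM and 0.84 at 8 AM.

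Slc25a1 (ENSMUSG00000003528, chr16:17925223-17928219) encodes the mitochondrial citrate carrier, which exports the carbon for fatty acid and sterol synthesis. It stood at 210, 1100 and 2450 CPM in the lowest, median and highest TAN library, and at 161, 351 and 790 in the ad-lib libraries. In 17 TAN libraries it was above every ad-lib library, and the lowest TAN value was that of replicate 2 at 8 PM, a library low in adipocyte markers. The mean log2 difference was 1.64 ± 0.188 (SE), adjusted p = 1.46e-07, and by time it ran from 0.85 at 8 AM to 2.41 at 4 PM.

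Eno1 (ENSMUSG00000063524, chr4:150236721-150248879), which encodes the glycolytic enzyme enolase, shares reads with near-identical copies in the mouse genome, so that its level is uncertain. It measured 545, 903 and 1870 CPM in the lowest, median and highest TAN library against 373, 505 and 879, and 14 TAN libraries exceeded every ad-lib library. The mean log2 difference was 0.90 ± 0.0977 (SE), adjusted p = 4.19e-08. Chchd10 (chr10:75933130-75937747) encodes a protein of the space between the mitochondrial membranes. It measured 32.7, 69.5 and 129 CPM against 14.5, 27.0 and 62.0, with a mean log2 difference of 1.3 ± 0.134 (SE) and an adjusted p of 1.55e-08. Unc119 (chr11:78343482-78349164), whose protein binds the lipid tails of signalling proteins, measured 28.4, 42.5 and 82.0 CPM against 13.5, 21.1 and 46.7, a mean log2 difference of 0.98 ± 0.107 (SE), adjusted p = 4.19e-08. Its effect differed between times (adjusted p = 0.0377), from 0.30 at 4 AM to 1.80 at 12 AM. For both genes the ranges of the diets overlapped, with 13 and 11 TAN libraries above every ad-lib one.

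**Figure D2:**
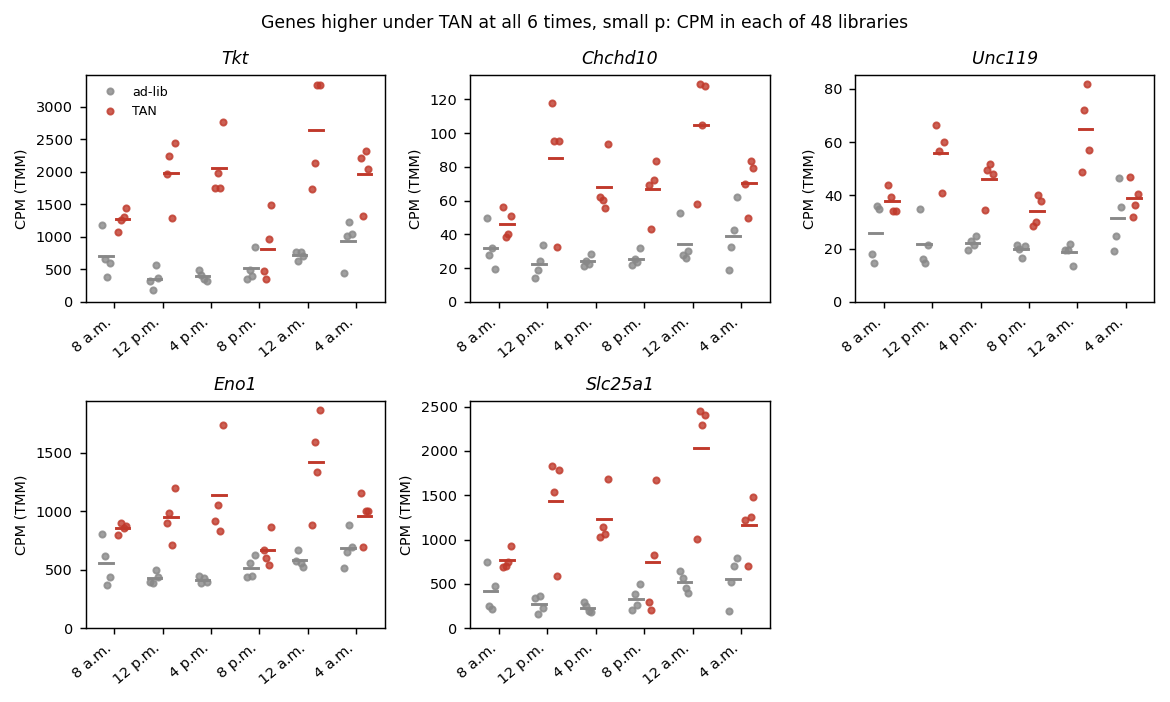
TMM-normalised CPM in each of the 48 libraries for 5 genes named for their small p among those higher under TAN at all 6 times, by time of day, with bars at the mean of 4. TAN points (red) lie above ad-lib points (grey) at most times, and the diets lie close at 8 PM for Tkt, where the TAN mean is 823 and the ad-lib mean 521.

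De novo lipogenesis was the list with the largest share of members on the rule. Of 21 genes tested, 15 were called higher for the mean effect and 12 of these were higher at all 6 times, with a median log2 difference of 0.73 against -0.08 for all genes tested. No member was called lower by edgeR, DESeq2 or limma voom, and none had an unadjusted p under 0.05 in that direction. By time the median was 0.96 at 8 AM, 0.88 at 12 PM, 1.55 at 4 PM, 0.18 at 8 PM, 1.18 at 12 AM and 0.48 at 4 AM. The median of the 20 adipocyte identity genes was -0.3, -0.09, 0.84, 0.29, 0.37 and -0.08 at the same times, so that it was also highest at 4 PM, where summed adipocyte markers were 37800 to 53900 CPM under TAN and 21100 to 29200 in ad-lib. At 8 PM, TAN replicates 1 and 2 were the libraries low in these markers. The part of these differences in the list's course over the day was not tested. The count of 15 was 10 without 4 PM, without 12 AM or without the libraries high in muscle markers, and 18 without the libraries low in adipocyte markers. The difference between times passed for 2 of the 21.

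Elasticity genes, a set that the study followed for its response to nutrition, make up 6 of those 12. Of the 20 in the set, 9 were called higher at all 6 times and 1, the imprinted zinc finger gene Peg3, lower. Levels of the fatty acid elongase gene Elovl6 were 32.8, 544 and 1700 CPM in the lowest, median and highest TAN library against 23.0, 82.6 and 342, and those of the fructose transporter gene Slc2a5 were 3.01, 30 and 133 against 0.0374, 3.64 and 16. In both genes the ranges overlapped, with 19 and 20 TAN libraries above every ad-lib one. Their mean log2 differences were 2.65 ± 0.267 and 3.19 ± 0.314 (SE).

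Beyond them, and named after their values were seen, 5 further lipogenesis genes were called and stayed higher at all 6 times. Of these, Scd1 is also named in the study's network of elasticity genes, though it is not among the 20 used here. Tecr, the last reductase of acyl chain elongation, had a mean log2 difference of 0.66 (mean 210 CPM under TAN and 130 in ad-lib, adjusted p = 8.29e-06). Hsd17b12, the preceding ketoreductase of the same cycle, had 0.73 (adjusted p = 0.00439). Acacb, the mitochondrial acetyl-CoA carboxylase, had 1.05 (adjusted p = 0.000462), and Aacs, which makes cytosolic acetoacetyl-CoA, had 0.65 (adjusted p = 0.0181). Scd1, the main desaturase, passed narrowly at 0.69 (adjusted p = 0.0488), with means of 30800 and 18500 CPM.

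Cholesterol synthesis followed with 14 of 25 genes called higher, 6 of them at all 6 times, and a median of 0.47. No member was called lower by edgeR, DESeq2 or limma voom, and 1 had an unadjusted p under 0.05. Mvd, which makes isopentenyl diphosphate, rose by 1 ± 0.126 (SE), adjusted p = 8.29e-07, from 4.43, 8.81 and 14.3 CPM in the lowest, median and highest ad-lib library to 5.97, 15.9 and 53.4. It belongs to the elasticity set as well. Nsdhl, a sterol demethylating dehydrogenase, rose by 0.89 ± 0.148 (SE), adjusted p = 0.000191, and Acat2, which makes the first precursor acetoacetyl-CoA and has a close copy beside it in the genome, rose by 0.85 ± 0.139 (SE), adjusted p = 0.000167. For Nsdhl the difference was 1.78 at 4 PM and 0.13 at 8 PM, and 4 TAN libraries lay above all ad-lib libraries while 2 lay below them. The list median was -0.12 at 4 AM, and the count of 14 was 7 without 4 PM and 6 without 12 AM.

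Glucose breakdown was the next step compared. Of 23 glycolysis genes, 10 were called higher, 5 of them at all 6 times, with a median of 0.31, and none lower by edgeR, DESeq2 or limma voom or at an unadjusted p under 0.05. Pyruvate kinase (Pkm) had a log2 difference of 0.73 ± 0.0870 (SE), adjusted p = 3.07e-07, phosphofructokinase (Pfkl) 0.77 ± 0.0936, adjusted p = 5.70e-07, and glucose phosphate isomerase (Gpi1) 0.42 ± 0.0759, adjusted p = 0.00059. Pkm separated the diets at 5 of the 6 times, although over the whole day only 3 TAN libraries exceeded the highest ad-lib library, at 716 CPM. The insulin-responsive glucose transporter Slc2a4 stood at 47.0, 324 and 727 CPM in the lowest, median and highest TAN library against 102, 214 and 356, with a mean log2 difference of 0.62 ± 0.181 (SE), adjusted p = 0.0368. It kept its call in 37 of 60 refits that left out a library or a replicate. The count of 10 was 4 without 4 PM and 5 without 12 AM.

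Pyruvate entry into the mitochondrion was represented by several members of 1 complex. Of 33 genes of pyruvate entry and the TCA cycle, 12 were called higher, 6 at all 6 times, with a median of 0.37, and none lower by edgeR, DESeq2 or limma voom or at an unadjusted p under 0.05. Pcx, pyruvate carboxylase, rose by 1.04 ± 0.169 (SE), adjusted p = 0.000157, with 176, 883 and 1380 CPM in the lowest, median and highest TAN library against 134, 368 and 1090. Pdhb, the beta subunit of the first pyruvate dehydrogenase enzyme, rose by 0.86 ± 0.147 (SE), adjusted p = 0.000295, with 15 TAN libraries above every ad-lib one. A further 3 genes of the complex, named after their values were seen, passed in the same direction at all 6 times, with 0.83 for Pdha1 (adjusted p = 0.00243), 0.69 for Dlat (adjusted p = 0.0022) and 0.57 for Pdhx (adjusted p = 0.00439). The kinase that shuts the complex off, Pdk1, rose too, by 0.53 ± 0.0901 (SE), adjusted p = 0.000246. The count of 12 was 2 without 4 PM.

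Of 12 genes of the pentose phosphate pathway and NADPH, 5 were called higher, Tkt and malic enzyme (Me1) at all 6 times, with a median of 0.25, and 0 were called lower by edgeR, DESeq2 or limma voom, with 1 at an unadjusted p under 0.05. Pgd and Taldo1, which encode an oxidative and a non-oxidative enzyme of the same pathway and lie outside the sign rule, were higher at 5 times. Pgd was at -0.19 at 8 PM and Taldo1 at -0.12 at 8 AM. In triglyceride synthesis 4 of 15 genes were called higher, with a median of 0.20, and 2 kept the same sign. Agpat2, which makes phosphatidic acid, rose by 0.96 ± 0.179 (SE), adjusted p = 0.000978, and Gpd1, which makes glycerol phosphate, by 0.80 ± 0.182 (SE), adjusted p = 0.00775. Both lost the call when 4 PM was left out, as did all 4 called members of the list. In glycogen metabolism 6 of 20 were called higher, 3 at all 6 times, with a median of 0.20, and the branching enzyme Gbe1 rose by 0.87 ± 0.173 (SE), adjusted p = 0.0021. In triglyceride synthesis no gene was called lower by edgeR, DESeq2 or limma voom, and none had an unadjusted p under 0.05.

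**Figure D3:**
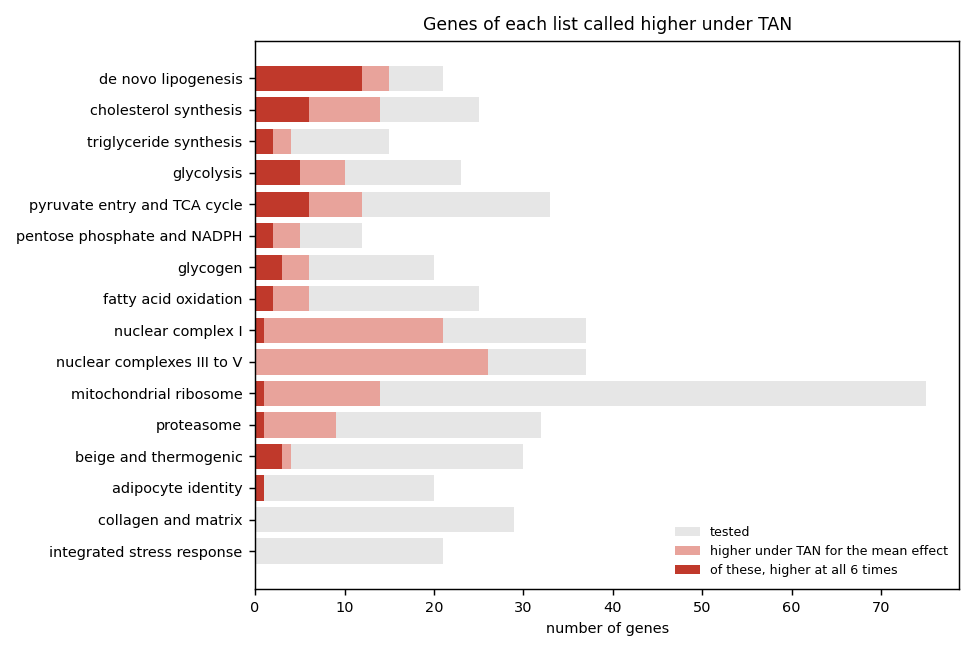
Number of genes tested (light grey), called higher under TAN for the mean effect (light red) and called higher with the same sign at all 6 times (dark red), for 16 gene lists. De novo lipogenesis has 12 of 21 genes in dark red, while complexes III to V of the respiratory chain have 26 of 37 called and none of the same sign at all 6 times.

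Respiratory chain genes were called often but not with a shared sign. Of 37 nuclear genes of complex I, 21 were called higher for the mean effect and 1, Ndufa10, was higher at all 6 times. Of 37 nuclear genes of complexes III to V, 26 were called higher and none kept the same sign. Their medians were 1.15 and 1.15 at 4 PM, but -0.37 and -0.38 at 8 AM and -0.16 and -0.08 at 4 AM. At 12 PM, 8 PM and 12 AM they were 0.12, 0.67 and 0.81 for complex I and 0.21, 0.71 and 0.85 for complexes III to V. The adipocyte identity genes had medians of 0.84 at 4 PM, -0.3 at 8 AM and -0.08 at 4 AM. At 12 PM, 8 PM and 12 AM their medians were -0.09, 0.29 and 0.37, so that the sign differed at 12 PM. The lymphocyte markers had a median of -3.81 at 4 PM. The part of these cells in the result was not tested. The test of a difference between times passed for 28 and 26 of these genes, against 1793 (8.98%) of all genes tested. Without the 10 libraries high in muscle markers it passed for 0 and 0 by edgeR (0 of all genes, with 4361 at an unadjusted p under 0.05), for 29 and 25 by DESeq2 and for 1 and 3 by limma voom. It also passed for none of them by edgeR without replicate 3 of either diet. Ndufa10 rose by 0.45 ± 0.0808 (SE), adjusted p = 0.000595, with 0.08 at 8 AM and 0.11 at 4 AM.

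The calls of these 2 lists rested on few times and libraries. Without 4 PM, 0 members of either list were called by edgeR (35 of 37 in each had an unadjusted p under 0.05 with all 6 times), and without the 10 libraries high in muscle markers, 1 and 0 were called. With the mitochondrial share of counts as a covariate, 8 and 15 were called. Over all genes, 361 were called higher without a shared sign, and for 236 of them the opposite sign fell at 4 AM, for 209 at 8 AM, for 55 at 8 PM and for 42 at 12 PM. The mitochondrial ribosome had 14 of 75 genes called higher and 1 at all 6 times, with 45 differing between times, and the proteasome had 9 of 32 called and 1 at all 6 times, with 21 differing, and none of these differed by edgeR without the libraries high in muscle markers. That proteasome gene was Psmd3, which encodes a lid subunit, at 0.32 ± 0.0734 (SE), adjusted p = 0.00952. The test of a difference between times passed for 6 of the 174 higher genes of the same sign and for 2 of the 70 lower ones, and no call there is no evidence of an equal effect.

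Fat breakdown and transport gave single genes. Of 19 genes of lipolysis and the lipid droplet, 3 were called higher, with a median of 0.28. Cidea, a droplet protein that is also a usual marker of beige fat, rose by 1.19 ± 0.171 (SE), adjusted p = 1.4e-05, with 40, 83.2 and 221 CPM in the lowest, median and highest TAN library against 16.9, 36.4 and 102. The ranges overlapped, with 6 TAN libraries above every ad-lib one. Plin2, which coats droplets, rose by 0.67 ± 0.139 (SE), adjusted p = 0.00374. The fatty acid chaperone Fabp5, 1 of 2 genes called among 12 of lipid uptake, rose by 0.92 ± 0.131 (SE), adjusted p = 1.3e-05, with 15 TAN libraries above every ad-lib library. In fatty acid oxidation 6 of 25 genes were called higher with a median of 0.26, the carnitine carrier Slc25a20 at all 6 times with 0.49 ± 0.118 (SE), adjusted p = 0.0133, and the count of 6 was 0 without the libraries high in muscle markers.

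Of 30 beige and thermogenic genes, 4 were called higher and 1 lower, with a median of 0.07 against -0.08 for all genes. Cidea, Elovl3 and Kcnk3 kept the same sign. Kcnk3, a background potassium channel of fat cells, rose by 1.05 ± 0.213 (SE), adjusted p = 0.00286, and had 7.02, 18.8 and 38.1 CPM against 1.55, 7.38 and 24.5. Elovl3, an elongase of very long acyl chains, was scarce, at 0 to 4.80 CPM under TAN with a median of 1.01 and 0 to 2.52 in ad-lib with a median of 0 (adjusted p = 0.00254), and since 1 of the 12 groups was at or under 3 counts in every library its fitted change is not given. Of 20 adipocyte identity genes, 1 (Slc2a4) was called higher, with a median of 0.20. Of 29 collagen and matrix genes, edgeR, DESeq2 and limma voom called 0 in either direction, with 2 lower at an unadjusted p under 0.05 and a median of -0.07.

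Further genes higher at all 6 times stood on no list and were named by the size of the change. Pth1r, the receptor of parathyroid hormone, had 7.10, 50.8 and 93.9 CPM in the lowest, median and highest TAN library against 8.29, 18.8 and 42.0, a mean log2 difference of 1.40 ± 0.164 (SE), adjusted p = 2.25e-07. It was above every ad-lib library in 15 TAN libraries and below all of them in 1, replicate 2 at 8 PM. Mogat2, a monoacylglycerol acyltransferase, had a mean log2 difference of 1.78 ± 0.437 (SE), adjusted p = 0.0137, and Ntsr2, a neurotensin receptor, 1.39 ± 0.339 (SE), adjusted p = 0.013. Both were at 0 counts in TAN replicate 1 at 8 PM and lost the call without 4 PM. Ttc25, Slc25a48 and Golga7b passed with 1.71, 1.40 and 1.40. Aspg, an asparaginase, ranged from 0 to 9.41 CPM under TAN, median 2.02, and from 0 to 2.13 in ad-lib, median 0.324 (adjusted p = 1.36e-05), with 12 TAN libraries above every ad-lib one. Trim80 was at 0 to 3.81 and 0 to 1.68 CPM (adjusted p = 0.0191), and for both some groups were at or under 3 counts throughout, so no fitted change is given.

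Among genes chosen after their values were seen, Hsd11b1, which regenerates active glucocorticoid inside fat cells, had a mean log2 difference of 1.09 (means 588 and 261 CPM, adjusted p = 0.000166). The phospholipid genes Pcyt2, Chpt1 and Lpcat3, which make and remodel phosphatidylethanolamine and phosphatidylcholine, had 0.60 (adjusted p = 1.36e-05), 0.68 (adjusted p = 0.029) and 0.37 (adjusted p = 0.018). The adenosine receptor gene Adora1, known for restraining lipolysis in fat cells, had 0.60 (adjusted p = 0.0249). Coq8a and Coq8b, a pair of kinases needed for coenzyme Q synthesis, had 0.48 each (adjusted p = 0.00311 and 0.0167). All 7 were higher at all 6 times.

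**Figure D4:**
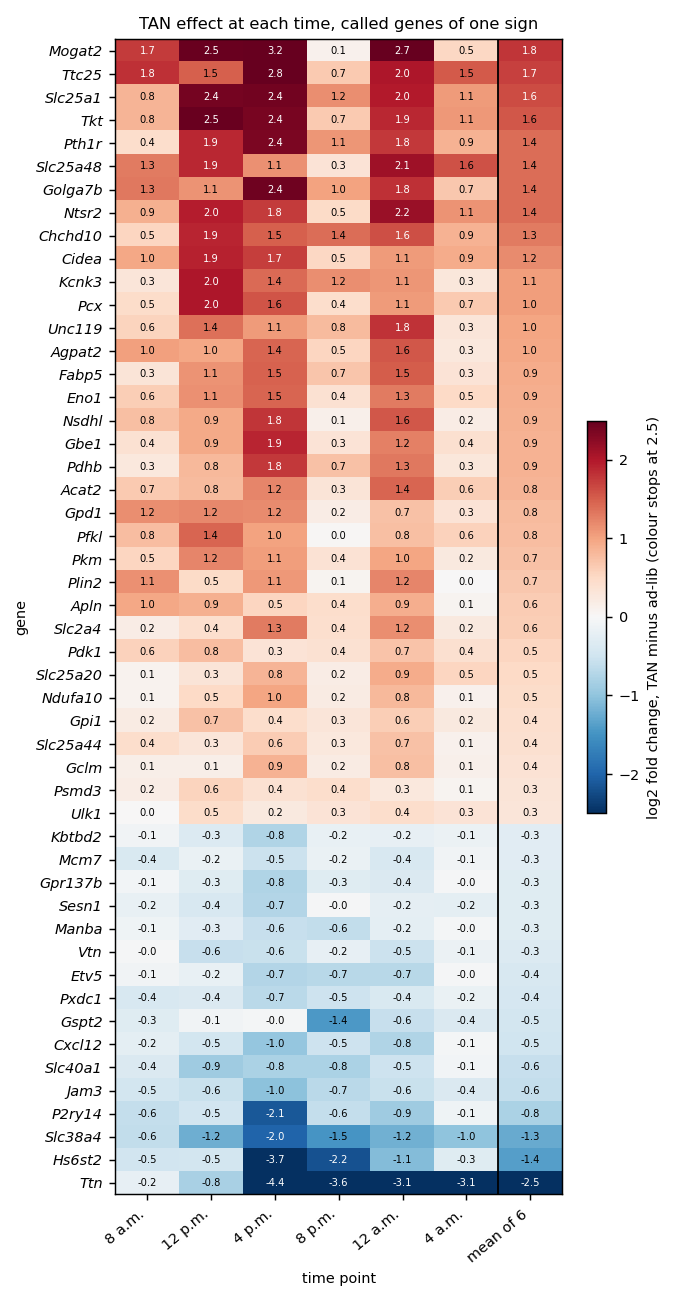
Fitted log2 difference, TAN minus ad-lib, at each of the 6 times and as their mean (last column) for 50 genes named by the rule that were called with the same sign at all 6 times and had counts in every group, 34 higher (red) and 16 lower (blue), with the colour stopping at 2.5. For many of the higher genes the differences are large at 12 PM, 4 PM and 12 AM and small at 8 PM, as for Tkt with 0.66 at 8 PM and 2.47 at 12 PM.

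Among the named genes that fell at all 6 times, an amino acid transporter gene had the smallest p. Slc38a4 (ENSMUSG00000022464, chr15:96994820-97055956), which is imprinted in mice, had 0.27, 3.65 and 8.04 CPM in the lowest, median and highest TAN library against 1.86, 6.29 and 26.4. No TAN library exceeded the highest ad-lib library, 6 lay below the lowest, and the diets did not overlap at 3 of the 6 times. The mean log2 difference was -1.26 ± 0.266 (SE), adjusted p = 0.00439, from -0.62 at 8 AM to -2.01 at 4 PM. Ad-lib replicate 3 was high at 8 AM, 12 PM and 4 AM, with 18.3, 26.4 and 23.6 CPM. These 3 libraries were among those high in muscle markers, with sums of 1380, 4070 and 8740 CPM, and so was TAN replicate 3 at 8 PM, with 5.11 CPM of Slc38a4 and a sum of 680. Without the 10 libraries high in muscle markers the difference was -1.09 (adjusted p = 0.0195). The call was lost without ad-lib replicate 3, without replicate 2 of both diets and without 4 PM, with a smallest change of -0.81 over the refits that left out a library or a replicate, and was -0.75 (adjusted p = 0.0172) without libraries low in either marker list. Peg3, which is imprinted as well, fell by 1.18 ± 0.262 (SE) on the log2 scale, adjusted p = 0.00688. Of 15 imprinted growth genes tested, 2 were called lower, with a median of -0.15, and Nnat, the other, was higher under TAN at 4 PM by 0.37.

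Several genes of middle abundance fell by small amounts. Vtn (chr11:78499091-78502324) encodes the matrix and plasma protein vitronectin, and had 19.3, 28.5 and 39.8 CPM in the lowest, median and highest TAN library against 22.0, 36.4 and 53.7, a mean log2 difference of -0.34 ± 0.0752 (SE), adjusted p = 0.00596. Gpr137b (chr13:13357620-13394014), a lysosomal membrane protein, had 15.8, 28.6 and 36.8 CPM against 24.7, 34.3 and 50.1, a difference of -0.30 ± 0.0686 (SE), adjusted p = 0.00737. Manba, the lysosomal beta-mannosidase, differed by -0.31 ± 0.0755 (SE), adjusted p = 0.013, with 7 TAN libraries below the lowest ad-lib library. Kbtbd2, an adaptor of a ubiquitin ligase known to act on the regulatory subunit of PI3 kinase, differed by -0.28 ± 0.0663 (SE), adjusted p = 0.0106. In these 4 genes the ranges of the diets overlapped, and 21, 21, 19 and 23 of the 24 ad-lib libraries lay above the TAN median for Vtn, Gpr137b, Manba and Kbtbd2. At 8 AM or 4 AM their differences were small, between -0.02 and -0.15, and each lost the call without 4 PM.

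Other decreases were found in genes of adhesion, transport and signalling. The chemokine gene Cxcl12 had 120, 283 and 434 CPM in the lowest, median and highest TAN library against 164, 351 and 780, and a mean log2 difference of -0.50 ± 0.137 (SE), adjusted p = 0.0286. The junction protein gene Jam3 had -0.60 ± 0.165 (SE), adjusted p = 0.0273, and the iron exporter gene Slc40a1 had -0.57 ± 0.154 (SE), adjusted p = 0.0257. The receptor gene P2ry14, which responds to UDP-sugars, had -0.79 ± 0.224 (SE), adjusted p = 0.0322, and Hs6st2, a heparan sulfate sulfotransferase gene, had -1.37 ± 0.390 (SE), adjusted p = 0.0334. Pxdc1, Etv5 and Gspt2, a copy of Gspt1 without introns that can share its reads, had -0.42, -0.40 and -0.46. All of these lost the call without 4 PM and without 12 AM. The other lower genes on lists were Sesn1, a sestrin that restrains mTORC1, at -0.30 ± 0.0784 (SE), adjusted p = 0.0193, and Mcm7, a replicative helicase subunit, at -0.29 ± 0.0819 (SE), adjusted p = 0.0332.

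**Figure D5:**
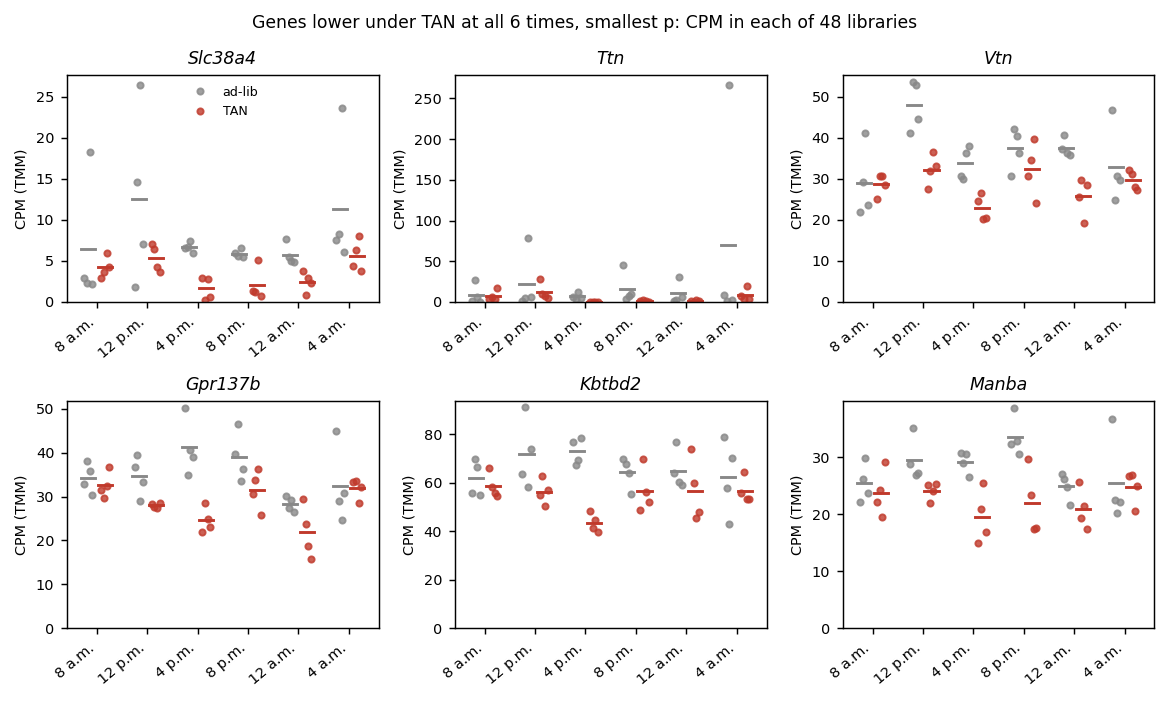
TMM-normalised CPM in each of the 48 libraries for the 6 genes of smallest p among those lower under TAN at all 6 times with at least 1 CPM in ad-lib, predicted genes, pseudogenes, immunoglobulin segments and elasticity genes left out, by time of day, with bars at the mean of 4. TAN points (red) lie mostly within or under the ad-lib range (grey), and 1 ad-lib library at 4 AM sets the axis of Ttn with 266 CPM.

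Muscle and immunoglobulin genes formed a further set, beside which the marker sums of those tissues are given, and the part of these tissues in the result was not tested. Ttn, the titin gene of muscle, had 0, 2.91 and 28.5 CPM in the lowest, median and highest TAN library against 0.361, 5.96 and 266, a mean log2 difference of -2.53 ± 0.547 (SE), adjusted p = 0.00569. Ad-lib replicate 3 at 4 AM held the 266 CPM and the muscle sum of 8740. Without the libraries high in muscle markers the difference was -1.37 (adjusted p = 0.11). Of 18 muscle markers tested, 9 were lower at all 6 times and 1, Ttn, was called, with a median of -1.60. The muscle genes Mybpc1 and Nrap were also called lower with 0 to 19 and 0 to 3.74 CPM under TAN against 0 to 77.1 and 0 to 13.8, and both lost the call without these libraries (adjusted p = 0.0756 and 0.601).

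The 16 immunoglobulin segments called lower at all 6 times were part of 85 called lower among 297 immunoglobulin and T cell receptor segments tested. Over all 19977 genes tested, 547 (2.74%) were called lower, 70 of them at all 6 times. Segments of these families share sequence, so that counts of a given segment are uncertain. The kappa constant gene Igkc, given after its values were seen, had means of 456 and 937 CPM and a mean log2 difference of -1.27, adjusted p = 0.0209, from -0.20 at 8 AM to -3.76 at 4 PM. At 4 PM, 3 of 4 TAN libraries were low in lymphocyte markers and no ad-lib library was. Over the day the lymphocyte sum had a median of 953 CPM under TAN, with a range of 7.81 to 1710, and 1320 in ad-lib, with a range of 6.77 to 2300. Of the 10 lymphocyte markers, 0 were called in either direction by edgeR, DESeq2 or limma voom, with 2 lower at an unadjusted p under 0.05 and a median of -0.88, and of the 12 mast cell markers 2 were called lower, neither at all 6 times, with a median of -0.78. Macrophage markers had 1 of 21 called lower, Csf1r, and a median of -0.46. At an unadjusted p under 0.05 by edgeR, 9 of the 12 mast cell and 10 of the 21 macrophage markers were lower and 0 were higher. Over all 19977 genes tested, 2719 were lower at that limit.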

How the data were processed

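Inguinal white adipose tissue was profiled by RNA sequencing in 48 libraries (TAN or ad-lib feeding, 6 times, 4 replicates), with 15636378 to 29913310 counts each. The authors deposited raw counts per gene, which were the values tested, and a table of the authors' mean FPKM per group, used only to compare directions. The submitters' processing notes name TopHat 1.3.3, DESeq2 1.20.0, limma, edgeR and the builds mm9, mm10 and GRCm38, with no role given. The counter and its strand setting are not given in the sources used here, so that overlapping and antisense genes are uncertain. Coordinates are those of the count table, and 0 sample columns were left out.

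Counts were fitted in R 4.3.3 with edgeR 4.0.16 (robust quasi-likelihood fit, TMM, filterByExpr at a minimum count of 10) with 1 coefficient per diet and time, time being a factor. The mean over 6 times of TAN minus ad-lib was tested with Benjamini-Hochberg adjustment over all 19977 genes and called at 0.05. The diet by time difference (5 degrees of freedom) and each time came from the same fit. Levels are TMM-normalised CPM. No gene set test was run.

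The members and gene lists were chosen with earlier results of these data known. Genes named by size or p were called, had the same sign at all 6 times and had a mean of at least 1 CPM in the higher diet. Elasticity genes, predicted genes, pseudogenes and immunoglobulin segments were left out of them. They were the 12 largest changes and the 6 smallest p in each direction. Up to 4 called members of each list and direction were named as well, whatever their signs, level or class. Named genes of lists therefore include genes of mixed sign and elasticity genes. 1 gene that the rule named is not reported here. Other genes named are said to have been chosen after their values were seen. In a supplementary table of the study the animals stand under other clock times than in the labels, which were used. A relabelling common to both diets would permute the 6 differences and leave their mean unchanged. Replicate numbers were not used to pair the diets in the main fit (correlation of deviations over 0.1 in 10 of 24 pairs, median -0.0127). Alternatives were limma 3.58.1 voom, DESeq2 1.42.0, other filters and size factors, blocks, covariates and subsets of libraries.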

Additional observations from a re-analysis of the deposited data

Results flagged for a closer look

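Among the genes called for the mean effect and named, the effect differed between the 6 times for 21, by the test of that difference (edgeR, adjusted p). Without the 10 libraries high in muscle markers, 0 of the 21 passed by edgeR, 15 by DESeq2 and 2 by limma voom, and without replicate 3 of ad-lib, of TAN or of both, 0 passed by edgeR. These were Tkt (0.0312), Unc119 (0.0377) and Pfkl (0.0441), which were higher under TAN at all 6 times. The others had mixed signs. The respiratory chain genes among them were Cox5a (0.0173), Cox5b (0.0198), Cycs (0.0342), Ndufa8 (0.0169), Ndufb9 (0.021), Ndufs4 (0.0246) and Uqcrq (0.0273). Mitochondrial ribosome and antioxidant genes were Mrpl30 (0.0415), Mrps7 (0.0322), Txn2 (0.0123) and Txnrd2 (0.0342). Proteasome genes were Psmd4 (0.0276) and Psmd8 (0.0272). The remaining 5 were the clock gene Arntl (0.0207), the sterol gene Cyp51 (0.0125), the RNA sensor gene Ddx58 (0.0213), the glycogen primer gene Gyg (0.0296) and the interleukin receptor gene Il1rl1 (0.0223).

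Of 132 groups of 4 libraries, formed by 11 genes named for their small p in either direction, 12 held a library whose gap to its neighbour exceeded Dixon's 95% critical share of the group's range, where chance gives about 1 group in 20. Such libraries were ad-lib replicate 1 at 12 AM and TAN replicate 4 at 4 PM for Chchd10 (52.9 and 93.3 CPM), ad-lib replicate 1 at 4 AM for Manba (36.7 CPM), and TAN replicate 1 at 12 AM and replicate 4 at 4 PM for Slc25a1 (1010 and 1680 CPM). For Slc38a4 they were ad-lib replicate 3 at 4 AM and at 8 AM (23.6 and 18.3 CPM) and TAN replicate 3 at 8 PM (5.11 CPM). For Ttn they were ad-lib replicate 3 at 12 AM, 12 PM and 4 AM (30.5, 78.5 and 266 CPM) and ad-lib replicate 1 at 8 PM (45.1 CPM).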

How the results depend on the processing

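All 110 named genes kept their direction in each of the 9112 refitted values, and 7737 of these kept the call while 1375 lost it. These genes were chosen because they were called with all 48 libraries, and the refits reuse most of these libraries. A kept direction is therefore no separate support. The counts of called genes moved more. They are given as higher, lower, higher at all times and lower at all times, against 535, 547, 174 and 70. Leaving out a library or a replicate gave 122 to 791, 35 to 971, 52 to 255 and 12 to 130. Single libraries that moved the last 2 counts by over 1.5 times were TAN replicate 4 at 8 PM (92 higher), ad-lib replicate 1 at 4 AM (102 and 30), ad-lib replicates 3 and 4 at 8 AM (43 and 120 lower), ad-lib replicate 2 at 12 PM (43 lower), TAN replicate 1 at 12 AM (116 lower) and ad-lib replicate 3 at 4 AM (130 lower). As means over 5 times the counts were 1061, 1751, 338 and 337 without 8 AM, 62, 18, 44 and 7 without 4 PM, 95, 42, 66 and 13 without 12 AM, and 917, 1106, 292 and 242 without 4 AM. Without 8 PM 114 were lower and 46 lower at all times, and without 12 PM 127 were lower at all times. With no filter 337 were higher, and with at least 10 counts in every library 287 were lower, 42 at all times. DESeq2 gave 831 lower and 117 at all times, and limma voom 310 and 31. An additive model of time and diet, which has no sign per time, gave 201 and 34. Without libraries high in muscle markers the 4 counts were 132, 135, 75 and 30. Chosen after seeing the data, they were 1205, 1462, 318 and 160 without libraries low in adipocyte markers, 964, 2301, 177 and 303 without those low in lymphocyte markers, 1667, 3461, 490 and 431 without both, and 993 lower and 170 lower at all times with adipocyte markers as a covariate. A floor of 0.5 on the size of the change left 234 higher and 46 lower at all times, and a floor of 1 left 77, 317, 50 and 43. Genes whose effect differed between times were 1793, 937 with no filter, 4031 with DESeq2 and 4439 with limma voom. All other settings for this count were chosen after seeing the data, except other filters, size factors and the replicate block. Leaving out a library or a replicate gave 2 to 3855, with 10, 6 and 2 without replicate 3 of ad-lib, of TAN and of both. Single libraries that moved it by over 1.5 times were ad-lib replicates 3 and 4 and TAN replicate 1 at 4 PM (1072, 1190 and 1173), ad-lib replicates 4 and 2 at 8 AM (1189 and 3855), ad-lib replicate 4 at 12 PM (3012), ad-lib replicate 1 at 4 AM (3021), TAN replicate 1 at 12 AM (3281) and TAN replicate 4 at 8 PM (3488). Without libraries high in muscle markers 0 passed by edgeR (4361 at an unadjusted p under 0.05), 1720 by DESeq2 and 666 by limma voom. The count was 472 without 8 AM, 604 without 4 PM, 823 without 4 AM, 951 with the replicate block within each time point, 979, 3087 and 3550 with lymphocyte markers, the mitochondrial share or adipocyte markers as a covariate, and 3772 without libraries low in adipocyte markers. The cause of these shifts was not tested.

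With the replicate number as a block, the 4 counts were 477, 468, 165 and 70, and with the replicate block within each time point 333, 95, 133 and 8. Of the 174 and the 70, 148 and 48 kept both call and sign with the first block, and 97 and 7 with the second. By the labels the samples share only a number (10 of 24 pairs over 0.1, from -0.586 to 0.844 over 5000 genes). Replicate 3 was high in muscle markers in ad-lib at 8 AM, 12 PM, 12 AM and 4 AM. In TAN it was so at 8 PM, 12 AM and 4 AM. The number is therefore not shown to be without meaning, and the fall from 70 to 8 stands as a limit. The block is given here and nowhere else. No library held over 5 times the median of lymphocyte markers, so that alternative was not run.

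At these depths genes under 1 CPM had few counts per library, and their changes are the least certain. With 4 libraries per group, most single times did not pass alone, and a time that did not pass is not shown to lack an effect.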
